A study of Mus musculus with 6 samples.

Results

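The genes described here are 5 members of the muscle response to loss of nerve activity, Runx1, Gadd45a, Hdac4, Hdac9 and Dach2. They were chosen by symbol, from 18193 genes named by the array annotation, and every probe set with exactly 1 symbol and that symbol was read. The 5 genes have 14 probe sets. The study compared hind limb muscle RNA of 3 wild type mice with that of 3 laminin alpha 2 chain deficient mice, all 4 weeks old, on 1 Affymetrix array per mouse. The laminin alpha 2 chain is a subunit of the laminin that ties muscle fibres to the basement membrane around them. The labels name neither the mutant allele, nor the strain, nor which hind limb muscles were taken, and they mention no nerve injury. The p-values measure the spread between these 6 mice.

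When a motor nerve falls silent, muscle fibres switch on a set of genes that innervation normally keeps low. The deacetylases Hdac4 and Hdac9 belong to class IIa, which binds MEF2 transcription factors and represses their targets. In denervated muscle Hdac4 is known to rise and Hdac9 to fall. Hdac4 lowers Dach2, a corepressor of the myogenic factor gene Myog, and myogenin then raises acetylcholine receptor subunits and the ubiquitin ligases of atrophy. Runx1, a DNA-binding factor that works with the partner protein Cbfb, rises strongly in denervated fibres, as does the stress protein Gadd45a. These statements are background from denervation studies and were not measured here.

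Of the 5 genes, Runx1 was the 1 called: its brightest probe set was higher in deficient muscle, 2.74-fold (95% interval 1.81 to 4.15, limma, adjusted p = 0.0257). Of its 5 tested probe sets, 3 had higher and 2 lower estimates, and their mean was not called (limma adjusted p = 0.265). The call was kept in 10 of 18 alternative settings, among them 1 of 6 fits with 1 library left out. Gadd45a was 1.44-fold (0.983 to 2.11) and Dach2 was 0.509-fold (0.303 to 0.855) the wild type level, and neither passed the test over all genes. Hdac4 and Hdac9 stood at 1.05-fold (0.768 to 1.44) and 0.996-fold (0.637 to 1.56). So 1 of 5 was called higher and 0 were called lower, where 2.76% of the 13113 genes tested were called in either direction, 1.3% of them higher and 1.46% lower. Without adjustment, 2 of the 5 had a p under 0.05, Runx1 and Dach2, as had 18.9% of all genes tested. The estimates of the set did not share 1 direction. Over probe sets, 4 of the 11 tested had groups that did not overlap, 3 higher and 1 lower in deficient mice, where 21.8% of all probe sets tested did, 10.7% higher and 11.1% lower. These counts are descriptions, since Runx1 1422865_at passed the low-signal filter (13.9) only through its deficient values and Dach2 1449823_at only through its wild type values. Fold changes were taken on log2(signal + 16), so the change of a dim gene is understated. Means are given in deposited signal units with their SD, n = 3 mice per group.

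**Figure D1:**
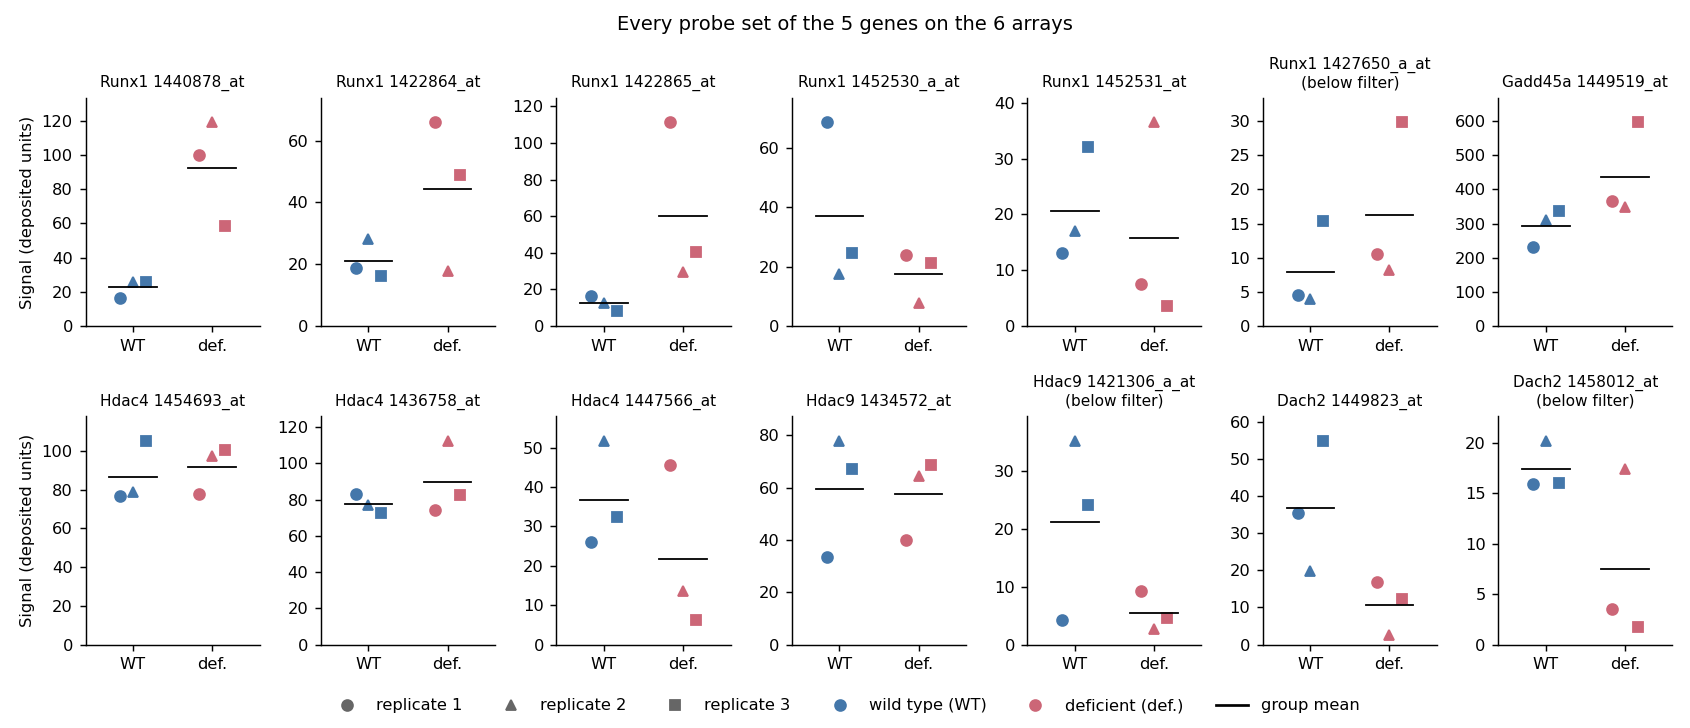
Signal in deposited units (vertical axes, linear, each with its own range from 0) at all 14 probe sets of the 5 genes, for 3 wild type (blue) and 3 deficient (red) mice, with the group mean as a black line and the replicate number as the symbol. Runx1 1440878_at read 16.2 to 25.9 in wild type and 58.2 to 119.1 in deficient muscle, while the Hdac4 and Hdac9 panels overlap between the groups.

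Array medians lay between 20 and 26.1 signal units, so several of the values given here are near the middle of what an array reads. The 8 muscle fibre markers summed to between 73198 and 100711 units on every array, with Acta1 and Ckm among them. Macrophage markers, 7 of 7 with a positive fold change, summed to 2208 to 3211 in wild type and 3223 to 9085 in deficient muscle. Hair follicle markers summed to 1814 and 840 in wild type replicates 1 and 2, but to 100 in wild type replicate 3. In the deficient mice they summed to 68.6 to 84.3, with 1 of 6 tested called, lower. The 3 measured Y-linked genes summed to at least 524 in replicates 1 and 2 of each group and to 13.1 and 22.6 in the replicates 3. For the actin control, signal at the 5′ end divided by that at the 3′ end gave 1.04 to 1.15 in wild type and 0.51 to 0.819 in deficient libraries. The groups overlapped for Gapdh (0.961 to 1.19 against 0.886 to 1.15), pyruvate carboxylase and the transferrin receptor. The part of RNA quality in the results was not tested. With bulk tissue, fewer cells of a type and less RNA per cell cannot be told apart.

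Runx1 lies on chromosome 16, at 92601466 to 92826074 of GRCm38.p6. Its brightest probe set, 1440878_at, read 16.2, 25.9 and 25.8 in wild type replicates 1 to 3 and 99.8, 119.1 and 58.2 in deficient replicates 1 to 3. Every deficient mouse was above every wild type mouse, and the lowest deficient value was that of replicate 3. The means were 22.6 ± 5.57 and 92.4 ± 31.1, a log2 fold change of 1.45 (SE 0.266, limma adjusted p = 0.0257). The call did not survive the loss of 5 of the 6 libraries in turn. Leaving out wild type replicate 1, 2 or 3 gave an adjusted p of 0.116, 0.0815 or 0.0505, and leaving out deficient replicate 1 or 2 gave 0.0777 or 0.105. Leaving out deficient replicate 3 gave 0.00676. The log2 fold change stayed between 1.27 and 1.71 in these 6 fits. Within the 4 arrays that carried Y-linked transcripts the log2 difference was 1.77, and between the 2 arrays that did not it was 0.83.

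The other probe sets of Runx1 did not all repeat this. In the fit over all 27022 probe sets tested, 1 of its 5 tested probe sets was called, 1440878_at itself (adjusted p = 0.036), where 1.42% of all probe sets were called and 0.6% were called higher. Probe set 1422865_at read 16.2, 12.7 and 8.2 in wild type and 111.2, 29.5 and 40.2 in deficient muscle, so its groups did not overlap either, but its adjusted p was 0.125 (log2 fold change 1.29, SE 0.37). Its largest value, 111.2, belonged to deficient replicate 1. The probe set 1422864_at, annotated to the same transcript record as 1422865_at, read 18.8, 28.2 and 16.3 against 65.9, 17.8 and 49, with deficient replicate 2 inside the wild type range (log2 fold change 0.62, adjusted p = 0.397).

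Lower estimates were found at other Runx1 probe sets. The probe set 1452530_a_at had a log2 fold change of -0.57 (adjusted p = 0.487), with 68.5 in wild type replicate 1 and 7.8 to 24.6 on the other arrays. The probe set 1452531_at read between 3.5 and 36.5 with both extremes in deficient mice (log2 fold change -0.31, adjusted p = 0.738). The dimmest, 1427650_a_at, read 4 to 15.3 in wild type and 8.2 to 29.8 in deficient muscle, lay below the filter and was not tested. Averaged over its 5 tested probe sets, Runx1 had a log2 fold change of 0.50 and was not called (adjusted p = 0.265). The files do not say which part of the Runx1 transcript each probe set reads.

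Runx1 is transcribed from 2 starts in the RefSeq promoter table (GRCm38.p6), and the 250 bases before each start are shown because Runx1 was the member called. Capitals mark the E-box CANNTG, the letters that myogenic factors such as myogenin bind, and the RUNX motif TGTGGT or its reverse complement ACCACA. The windows searched ran from 250 bases before to 50 after a start, on both strands, and no E-box overlapped a RUNX match. Sequences run 5′ to 3′ on the minus strand, with the upper one at chr16:92826075-92826324 and the lower one at chr16:92697330-92697579.
Runx1, upstream start: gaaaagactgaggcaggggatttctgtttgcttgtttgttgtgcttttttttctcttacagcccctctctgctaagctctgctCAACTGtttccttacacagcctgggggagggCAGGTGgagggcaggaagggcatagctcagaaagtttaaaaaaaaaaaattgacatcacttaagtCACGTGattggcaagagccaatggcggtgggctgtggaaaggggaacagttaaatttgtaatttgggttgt
Runx1, downstream start: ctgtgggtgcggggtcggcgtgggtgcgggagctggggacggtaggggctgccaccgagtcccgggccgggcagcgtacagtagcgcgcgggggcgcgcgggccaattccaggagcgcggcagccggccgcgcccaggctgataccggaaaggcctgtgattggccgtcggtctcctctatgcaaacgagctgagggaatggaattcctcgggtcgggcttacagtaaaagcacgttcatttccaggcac
The upstream start had 3 E-box matches, whose first bases lie at -167, -136 and -71 from the start, and 2 RUNX matches on the opposite strand just past it, at 29 and 37, outside the bases shown. The downstream start had 0 matches of either motif. Of 32544 promoter windows of this length, 72.3% held an E-box and 16.7% a RUNX match, so an E-box is the usual case. A match is a description of letters and not a bound site.

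Runx1 is also a gene of blood cells, and its values were set beside those of macrophage genes. Genes were ranked by root-mean-square difference from Runx1 1440878_at over the 6 arrays, each centred on its own mean log2 value. The 3 with the smallest difference were Cd300c2, Cybb and Smim5. Cd300c2, a receptor of the CD300 family on leukocytes, differed from Runx1 by 0.10. The median over all genes tested was 0.818, and the nearest genes lie under it by the way they were picked. The distance includes the difference between the groups, so a gene with a similar rise ranks near. Cd300c2 read 15.1, 22.8 and 26.5 in wild type and 111.9, 114.1 and 49.9 in deficient muscle (log2 fold change 1.47, adjusted p = 0.0358). Its order among the arrays is close to that of Runx1 1440878_at, for which it was picked, with deficient replicate 3 the lowest of its group. Cybb, a subunit of the phagocyte NADPH oxidase, differed by 0.182 and read 437.5, 363.6 and 227.9 in deficient muscle, against 97.3 to 111 in wild type. Smim5, which encodes a small membrane protein, differed by 0.186, and passed the filter only through its deficient values.

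The summed macrophage markers stood at 9085, 6734 and 3223 in deficient replicates 1 to 3 and at 3211, 2472 and 2208 in wild type. Deficient replicate 3 was thus the lowest of its group at Runx1 1440878_at and in the macrophage sum. Its sum of 3223 lay just above the highest wild type sum of 3211. At Runx1 1422865_at and 1422864_at, which also had higher estimates, deficient replicate 2 was the lowest of its group (29.5 and 17.8). The lymphocyte markers summed to 188.6, 165.7 and 218 in deficient against 256.9 to 307.9 in wild type muscle, with 0 of 4 tested called (limma). Of the 7 macrophage markers 1 was called, higher, the perforin-like gene Mpeg1 (adjusted p = 0.0023). No macrophage marker was below 1 signal unit on any array. The part of macrophage RNA in the Runx1 signal was not tested.

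**Figure D2:**
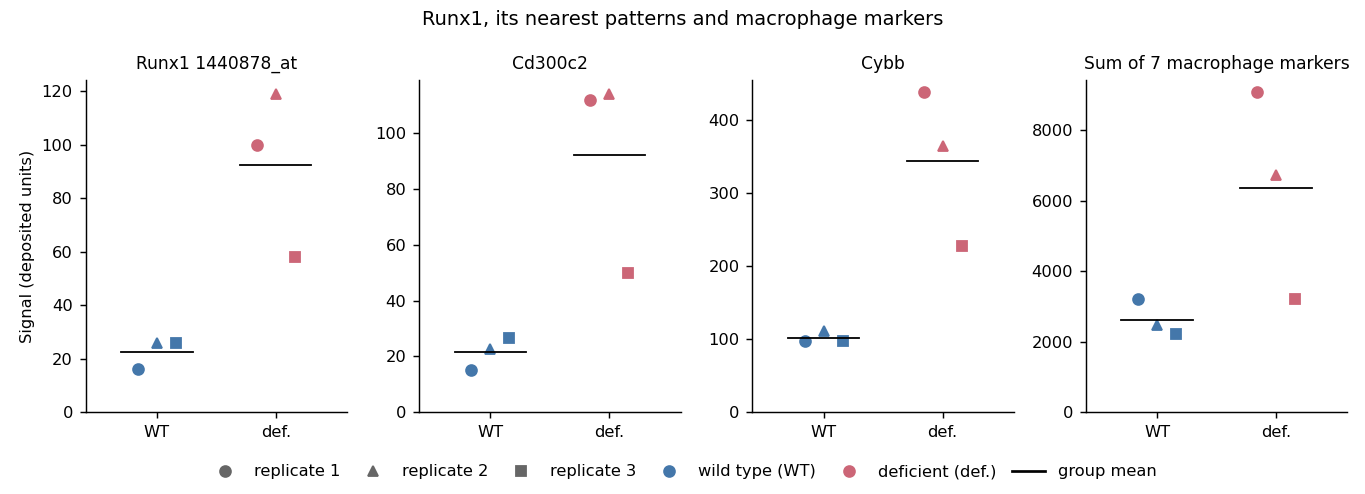
Signal in deposited units (vertical axes, linear from 0) of Runx1, of Cd300c2 and Cybb, which were nearest to it in pattern, and of the sum of 7 macrophage markers, for 3 wild type and 3 deficient mice, with group means as lines and replicate numbers as symbols. Deficient replicate 3, at 58.2 for Runx1 1440878_at and 3223 for the macrophage sum, is the lowest deficient mouse in all 4 panels. Cd300c2 and Cybb were picked for nearness to Runx1 over these same arrays, so their order largely follows from the pick. At Runx1 1422865_at and 1422864_at, not drawn here, the lowest was deficient replicate 2.

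Around Runx1, the gene of its partner protein, Cbfb, fell while Runx1 rose. Cbfb read 1705.6, 1784.8 and 1978.8 in wild type and 1035.4, 858.2 and 842.7 in deficient muscle. The groups lay far apart, and the log2 fold change was -0.99 (SE 0.159, limma adjusted p = 0.0161). Its call was lost without wild type replicate 1 (adjusted p = 0.076), wild type replicate 2 (0.0803), wild type replicate 3 (0.0505) or deficient replicate 2 (0.073). Cbfb has 1 probe set on the array. Of the 6 tested genes of the Runx list, 1 rose, 1 fell and 4 did not pass. Over all genes tested, 1.3% were called higher and 1.46% lower. The median log2 fold change of the list was -0.11 (-0.20 to 0.0 over the alternatives) beside 0.02 over all genes tested. Runx3, the other Runx gene tested, read 15.6 to 18.4 in wild type and 9.3 to 18.7 in deficient muscle.

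Gadd45a, a stress-induced nuclear protein that is raised in atrophying muscle, lies on chromosome 6 at 67035096 to 67037407. Its only probe set, 1449519_at, read 230.1, 310.9 and 338 in wild type and 366.1, 347.8 and 596.2 in deficient muscle. The groups did not overlap, though the highest wild type mouse and the lowest deficient mouse were close, and deficient replicate 3 stood well above the rest. The means were 293 ± 56.1 and 437 ± 138, a log2 fold change of 0.53 (SE 0.246, limma adjusted p = 0.285). Non-overlapping groups with the deficient mice higher held for 12.3% of genes tested. Without deficient replicate 3 the log2 fold change was 0.29, and 0 of 18 alternative settings called Gadd45a. Within the arrays with Y-linked transcripts it was 0.39, and between those without 0.79.

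The estimates of the Gadd45 paralogs had the opposite sign, and neither passed. Gadd45g read 825.5, 815.8 and 489.1 in wild type and 370.6, 240.8 and 502.3 in deficient muscle, with a log2 fold change of -0.93 (limma adjusted p = 0.127). Gadd45b had a log2 fold change of -0.45 (adjusted p = 0.392), and both genes were named after their values were seen. Cdkn1a, the gene of the cell cycle inhibitor p21, was the 1 gene of the 6 tested in the Gadd45 list that passed, in the rising direction. It read 231.9, 130.4 and 185 in wild type and 611.9, 910.7 and 1948 in deficient muscle (adjusted p = 0.015), again with deficient replicate 3 the highest. This call was lost without wild type replicate 1 (0.0511), wild type replicate 2 (0.0629) or deficient replicate 2 (0.0643). Of the 6 tested members 4 had a negative fold change, with a list median of -0.32. That median was 0.05 with the mean of each gene's probe sets, and leaving out deficient replicate 3 brought Gadd45g to a call, lower (adjusted p = 0.0407).

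The patterns nearest to Gadd45a were those of Abhd17b, Arid2 and Srsf5, with root-mean-square differences of 0.0504, 0.0575 and 0.0693. The median was 0.488, and the nearest genes lie under it by the way they were picked. Abhd17b is a depalmitoylating enzyme gene, Arid2 encodes a chromatin remodelling subunit and Srsf5 a splicing factor. All 3 were highest in deficient replicate 3, an order that the pick by nearness to Gadd45a favours. None was called (limma adjusted p = 0.32, 0.235 and 0.288). Deficient replicate 3 also stood apart in the atrophy ubiquitin ligase genes, named here after their values were seen. Fbxo32 read 2814.5 in that mouse and 143 to 248.4 in the other 5. Trim63 read 4565.7 in it and 1016.1 to 1566.4 in the others. Neither was called (adjusted p = 0.424 and 0.663).

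Hdac4, the class IIa deacetylase whose rise follows denervation, lies on chromosome 1 at 91928779 to 92195702. The brightest of its 3 probe sets, 1454693_at, read 76.5, 78.6 and 105.2 in wild type and 77.8, 97.3 and 100.4 in deficient muscle. The groups overlapped, at 86.8 ± 16 and 91.8 ± 12.3, and the log2 fold change was 0.074 (95% interval -0.38 to 0.53, adjusted p = 0.887). Its second probe set, 1436758_at, read 72.8 to 83 in wild type and 74.3 to 112.5 in deficient muscle (log2 fold change 0.16, adjusted p = 0.761). The third, 1447566_at, read 26, 51.7 and 32.4 against 45.6, 13.7 and 6.2, with a log2 fold change of -0.59 (adjusted p = 0.478). A rise of Hdac4 above 1.44-fold lies outside the 95% interval of the brightest probe set in the fit over genes, on the log2(signal + 16) scale. In the fit over probe sets the upper bound of the log2 fold change was 0.56 at 1454693_at and 0.65 at 1436758_at.

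Hdac9, which also encodes a form without the deacetylase domain that represses MEF2, lies on chromosome 12 at 34047580 to 34917095. Probe set 1434572_at read 33.3, 77.9 and 67.3 in wild type and 40, 64.3 and 68.8 in deficient muscle. Replicate 1 was the lowest in each group, and the group means of 59.5 ± 23.3 and 57.7 ± 15.5 differed by far less than the spread (log2 fold change -0.0054, SE 0.288, limma adjusted p = 0.995). The other probe set, 1421306_a_at, read 4.2, 35.2 and 24.2 against 9.2, 2.7 and 4.5, was below the filter and was not tested.

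The remaining deacetylase genes did not pass the test either. Of the 4 class IIa genes, 0 rose and 0 fell by limma, also 0 at an unadjusted p under 0.05, and 0 of 4 had groups that did not overlap, where 24.7% of genes tested did. Their log2 fold changes ran from -0.0054 for Hdac9 to 0.17 for Hdac7, which had the smallest p of the list (adjusted p = 0.756). Of 7 other zinc-dependent deacetylases, 0 passed, again 0 at an unadjusted p under 0.05. Hdac6, a cytoplasmic tubulin deacetylase, came nearest, from 63.6 ± 6.63 to 83.9 ± 7.15 with groups that did not overlap (adjusted p = 0.382).

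Class IIa deacetylases act through MEF2 factors and are moved out of the nucleus by calcium-dependent and other kinases. Of 13 tested genes of these partners and kinases, 0 passed by limma, and 4 had an unadjusted p under 0.05, against 18.9% of all genes tested. These 4 went both ways without overlap, the calcium/calmodulin-dependent kinase genes Camk2a and Camk2g lower and Camk2b and the protein kinase D gene Prkd3 higher. Of the 13, 2 were higher and 3 lower without overlap, Mef2c among the lower, where 24.7% of all genes tested had groups that did not overlap. Camk2g stood at 0.659-fold (adjusted p = 0.102), Camk2b at 1.49-fold (0.146) and Prkd3 at 1.75-fold (0.108). Leaving out deficient replicate 3 brought Camk2g to a call (0.0365). The smallest p was that of Camk2a, which read 294, 400.7 and 298.7 in wild type and 123.7, 220 and 136.7 in deficient muscle. Its groups did not overlap (0.498-fold, limma adjusted p = 0.0628). With Y-linked transcripts as a block Camk2a, Camk2g and Prkd3 were called (0.0218, 0.0343 and 0.022). Of the 4 tested probe sets of Camk2a, another, 1442707_at, was called lower in the fit over probe sets (82.8, 135.7 and 117.6 against 21, 42.8 and 34.8, adjusted p = 0.036). The other 2, 1437125_at and 1443876_at, overlapped between the groups, with log2 fold changes of -0.28 and -0.047 (adjusted p = 0.834 and 0.973). Mef2a, Mef2c and Mef2d had log2 fold changes of -0.10, -0.30 and 0.11, and none of these passed.

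Dach2, the corepressor that falls when Hdac4 rises in denervated muscle, lies on the X chromosome at 113297496 to 113836386. Its probe set 1449823_at read 35.6, 19.9 and 55 in wild type and 17, 2.5 and 12.4 in deficient muscle. Each deficient mouse was below each wild type mouse, a pattern seen downward in 12.4% of genes tested. The means were 36.8 ± 17.6 and 10.6 ± 7.41, with a log2 fold change of -0.97 (SE 0.334, unadjusted p = 0.016, limma adjusted p = 0.155). All deficient values lay below their array's median signal, and the deficient level of 9.88 (from the mean log2 value) was under the filter of 13.9, so Dach2 was tested only through its wild type level of 34.9. The size of its change therefore depends on the pseudocount, with a log2 fold change of -1.89 for 1 and -0.67 for 32. Over 17 alternatives the adjusted p ran from 0.0694 to 0.402, and in the 6 fits with a library left out the log2 fold change ran from -1.23 to -0.73. Within the arrays with Y-linked transcripts the difference was -0.80, and between those without -1.32.

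The second Dach2 probe set, 1458012_at, read 15.9, 20.2 and 16 in wild type and 3.5, 17.4 and 1.7 in deficient muscle. Deficient replicate 2 fell inside the wild type range, and the probe set was below the filter. The 3 patterns nearest to Dach2 were those of Dglucy, Ankrd40 and Bmyc, with root-mean-square differences of 0.192, 0.203 and 0.204. The median was 0.684, and the nearest genes lie under it by the way they were picked. None of the 3 was called (adjusted p = 0.0857, 0.164 and 0.298). Of the 8 tested genes of the Dach family and its partner factors, 0 passed by limma and 2 had an unadjusted p under 0.05, Dach2 and its paralog Dach1 (log2 fold change -0.63, adjusted p = 0.251), where 18.9% of all genes tested had one. Their median log2 fold change was -0.44, beside 0.02 over all genes tested.

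The starts of Dach2 and Gadd45a are shown beside those of Runx1 because these were the other 2 genes whose brightest probe sets did not overlap between the groups. Capitals mark the same E-box and RUNX letters. The Gadd45a sequence is at chr6:67037408-67037657 on the minus strand, and those of Dach2 are at chrX:113297260-113297509 and chrX:113298006-113298255 on the plus strand, all from RefSeq on GRCm38.p6.
Gadd45a: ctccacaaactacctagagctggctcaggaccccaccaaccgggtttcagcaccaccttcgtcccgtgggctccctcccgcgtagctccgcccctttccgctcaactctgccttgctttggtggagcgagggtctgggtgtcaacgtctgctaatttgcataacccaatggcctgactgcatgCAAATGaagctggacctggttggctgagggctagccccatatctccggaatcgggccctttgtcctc
Dach2, upstream start: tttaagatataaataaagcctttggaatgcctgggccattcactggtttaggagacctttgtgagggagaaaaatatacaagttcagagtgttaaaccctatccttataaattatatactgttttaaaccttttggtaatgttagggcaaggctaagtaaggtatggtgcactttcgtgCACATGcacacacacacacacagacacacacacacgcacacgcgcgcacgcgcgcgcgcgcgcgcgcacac
Dach2, downstream start: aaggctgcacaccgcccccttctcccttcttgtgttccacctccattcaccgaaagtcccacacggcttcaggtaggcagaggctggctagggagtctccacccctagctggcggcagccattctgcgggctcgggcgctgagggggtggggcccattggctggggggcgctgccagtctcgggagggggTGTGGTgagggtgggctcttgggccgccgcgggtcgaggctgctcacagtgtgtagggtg
The Gadd45a window had 1 E-box, at -67, and 0 RUNX matches. At Dach2 the upstream start had 1 E-box, at -71, beside a long run of alternating pyrimidines and purines, and the downstream start had 1 RUNX match, at -60. Of the members whose groups overlapped, Hdac9 had 2 and 3 E-box matches at its starts and Hdac4 had 0. Neither had a RUNX match.

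**Figure D3:**
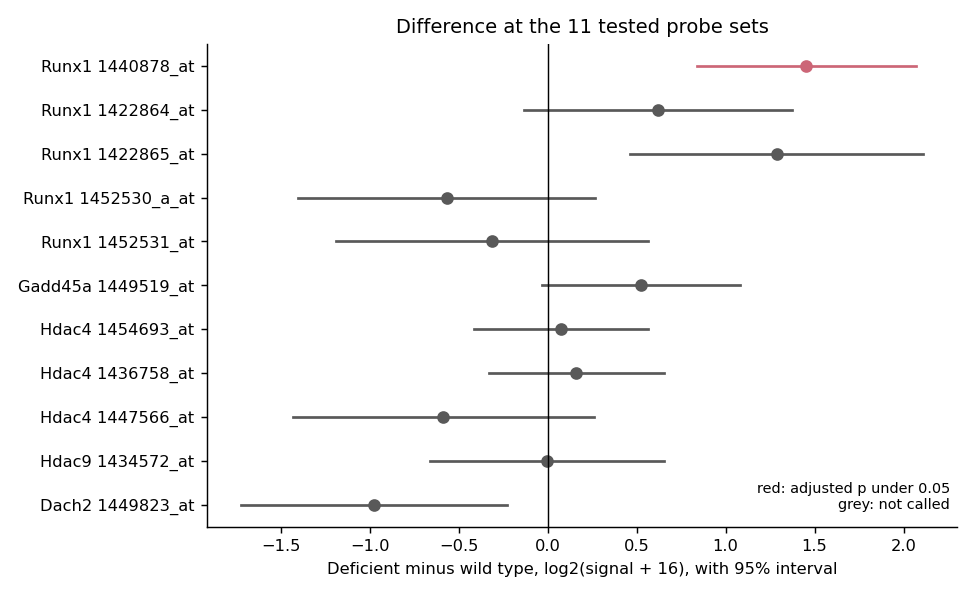
Deficient minus wild type difference on the log2(signal + 16) scale (horizontal axis) at the 11 tested probe sets of the 5 genes, with points for the estimate and lines for the 95% interval from limma. Only Runx1 1440878_at was called, and the Runx1 estimates run from -0.57 to 1.45.

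Genes downstream of the Hdac4 and Dach2 pathway in denervated muscle were read next. Over all genes tested, 1.3% were called higher and 1.46% lower. Of the 8 tested genes of myogenin, the acetylcholine receptor subunits, Musk and the ubiquitin ligases, 2 rose, 0 fell and 6 did not pass. Their median log2 fold change was 0.88, and it was 0.34 without deficient replicate 3 and 0.42 with no filter or the 60th percentile filter. The receptor subunit genes Chrna1 and Chrng rose. Chrna1 read 254.4, 273.5 and 175.7 in wild type and 607.3, 823.8 and 550.1 in deficient muscle (adjusted p = 0.0161). Chrng, the fetal subunit, read 20.6, 1.5 and 3.6 against 58.5, 96.8 and 44.7 (adjusted p = 0.0316). Its wild type level of 7.24 was under the filter, which it passed only through the deficient level of 63.9, and with no filter or with a pseudocount of 1 it was not called (0.0519 and 0.0564). The adult subunit gene Chrne stood at 55.9 ± 12.8 and 79 ± 5.12, and Chrnb1 at 365 ± 26.9 and 358 ± 83.4 (adjusted p = 0.312 and 0.934).

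Myog, the gene that Dach2 represses, was named after its values were seen. It read 269.1, 308.8 and 55.2 in wild type and 597.9, 794.5 and 459.4 in deficient muscle. The lowest value was that of wild type replicate 3, an array without Y-linked transcripts. Myog had groups that did not overlap and a limma adjusted p of 0.103 (log2 fold change 1.72, SE 0.502). With Y-linked transcripts as a block it was called (limma adjusted p = 0.00581). Without wild type replicates 1 and 2 together, only the low wild type replicate 3 remained, and the log2 fold change was 3.12. The calls of the receptor genes were lost with libraries left out, Chrna1 without wild type replicate 1 (0.0647) or deficient replicate 2 (0.073). That of Chrng was lost without wild type replicate 2 (0.116), wild type replicate 3 (0.0785), deficient replicate 1 (0.0797) or deficient replicate 2 (0.123). Satellite cell and myoblast markers summed to 314.4 to 432.2 in wild type and 376.7 to 516.2 in deficient muscle, which overlap. The part of myogenic cells in these values was not tested.

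Of 10 other tested genes known to rise in denervated muscle, 7 rose, 0 fell and 3 did not pass, with a median log2 fold change of 2.65. Over all genes tested, 1.3% were called higher. The 7 that rose were Sln, Myh3, Myh8, Ankrd1, Rrad, Cdkn1a and Eda2r, and several of these also belong to regenerating muscle. Their log2 fold changes ran from 1.78 for Eda2r to 4.71 for Sln, which stood at 2.98 with the mean of its probe sets. The list was drawn up with earlier results of these data known, so its count is not independent evidence of a direction. Rrad lost its call when wild type replicate 1, 2 or 3 was left out (adjusted p = 0.102, 0.0565 or 0.0639), and likewise for deficient replicate 1 or 2 (0.0531 or 0.10). Ncam1, which spreads over the fibre surface after denervation, read 38.5 to 40.9 in wild type and 58.5 to 99 in deficient muscle, without overlap, and had an adjusted p of 0.147. The glycolytic genes Pfkm and Eno3, repressed in denervated muscle, had log2 fold changes of -0.49 and -0.37 and did not pass (adjusted p = 0.155 and 0.192).

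**Figure D4:**
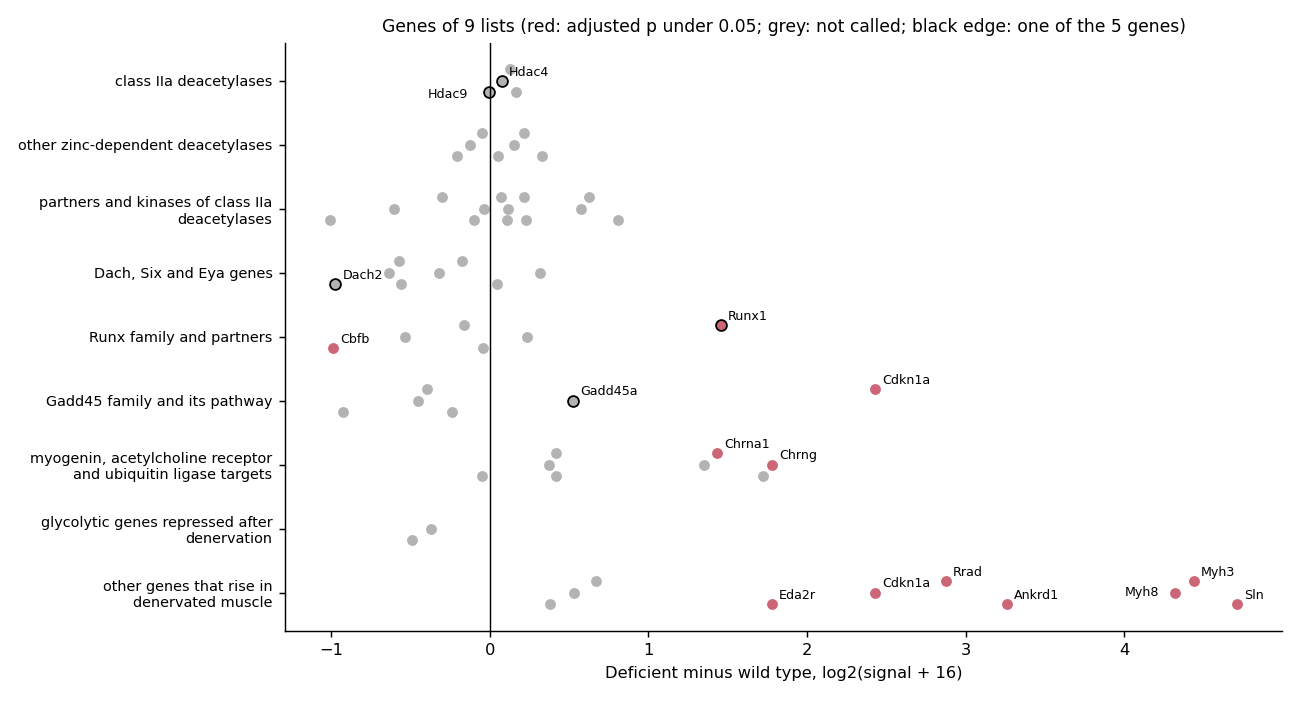
Deficient minus wild type difference on the log2(signal + 16) scale (horizontal axis) for every tested gene of 9 lists (rows), with called genes in red, others in grey and the 5 genes described here outlined in black. The deacetylases gather around 0, while 7 of 10 genes in the bottom row were called higher, against 1.3% of all genes tested. The list of the bottom row was drawn up with earlier results of these data known.

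Over the 58 tested list genes other than the 5 members, 9 were called higher and 1 lower. Over all genes tested, 1.3% were called higher and 1.46% lower. An unadjusted p under 0.05 (limma) was found for 20 of the 58, against 18.9% of all genes tested. The lists were drawn up with earlier results of these data known, so these counts are not independent evidence of a direction. The plot of the 5 genes under each setting shows how far each estimate moved.

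**Figure D5:**
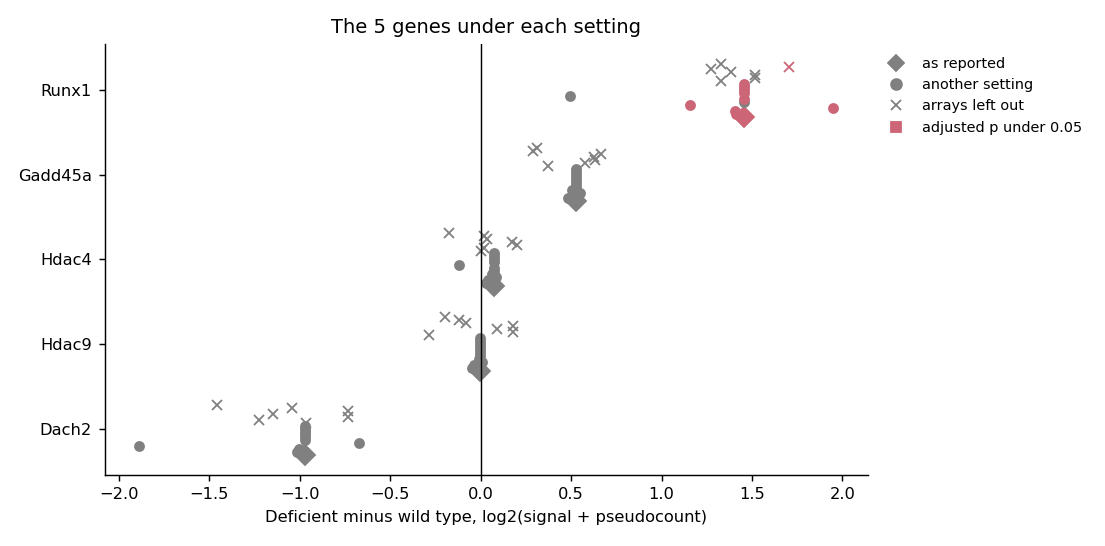
Deficient minus wild type difference in log2(signal + pseudocount) (horizontal axis) of each gene as reported (diamonds), under other settings (circles) and with arrays left out (crosses), in red where the adjusted p was under 0.05. Runx1 ran from 0.50 to 1.95 and Gadd45a from 0.29 to 0.66, Dach2 stayed below 0, and Hdac4 and Hdac9 lay on either side of 0.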

How the data were processed

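The authors deposited 1 linear signal intensity for each of 45101 probe sets on each array, by an algorithm that the labels and files used here do not name. Total RNA was extracted with TRIzol and RNeasy columns and labelled with biotin, per the labels' protocols. Groups and replicate numbers came from the sample titles, and the 3 mice of a group are biological replicates per the labels. The trimmed mean was 100.0 on each array and log2 medians differed by at most 0.226, so no further scaling was applied. From the deposited intensity, log2(signal + 16) was computed. Probe sets with a mean under the 40th percentile, a signal of 13.9, and 64 controls were left out. Among the 34945 probe sets with 1 symbol, the brightest stood for its gene, and probe sets were also fitted on their own. The comparison used limma 3.58.1 under R 4.3.3 (lmFit, eBayes with an intensity trend, two-sided), with Benjamini-Hochberg adjustment over all 13113 genes or 27022 probe sets, and called at an adjusted p under 0.05. The number of arrays limits precision. The steps were tested on simulated data. Members, lists and rules were chosen with earlier results of these data known. Named genes were all members, called list genes whose groups did not overlap, the smallest p of a list without one, and the 3 nearest patterns of a member; all other genes named with values, such as Runx3, Mef2a, Mef2c, Mef2d, Camk2b, Camk2g, Prkd3, Dach1, Chrne, Chrnb1, Ncam1 and Eno3, were chosen after their values were seen. Of 67 list genes other than members, 58 were tested. The cell type marker lists not described in the report showed these calls by limma. Of the 4 granulocyte and mast cell, 4 fibroblast, 4 endothelial and 3 Schwann cell markers tested, 0 were called, and of 3 brown adipocyte markers 2 were called lower.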

Additional observations from a re-analysis of the deposited data

How the results depend on the processing

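The Runx1 difference kept its sign in all 18 alternatives and its call in 10. It was not called with no filter (log2 fold change 1.45, adjusted p = 0.0518), with the mean of its probe sets (0.50, 0.265) or without wild type replicates 1 and 2 together (1.33, 0.401), where the lone wild type library is assumed to vary like the deficient ones. With 1 library left out it ran from 1.27 to 1.71. The number of the 5 genes called was 0 in those 3 settings and 0 to 1 with 1 library left out. Gadd45a and Dach2 kept their sign and were not called in any alternative. Dach2 had no value with the 60th percentile filter. Hdac4 turned to -0.12 with the mean of its probe sets and -0.18 without wild type replicates 1 and 2 together. Hdac9, at -0.0054, was 0.0053 with a pseudocount of 1 and ran from -0.29 to 0.18 with 1 library left out. These reversals were smaller than the standard errors of their fits, and the cause was not tested. Cbfb, Cdkn1a, Chrna1, Chrng, Rrad, Eda2r and Myh8 lost their call without wild type replicates 1 and 2 together (adjusted p = 0.307, 0.262, 0.146, 0.191, 0.205, 0.112 and 0.0736), so that 3 of the 10 other genes known to rise were called.

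The 362 genes called became 214 with no filter, 171 with no intensity trend, 864 with the replicate block, 1160 when blocked on Y-linked transcripts and 21 without wild type replicates 1 and 2 together. It ran from 65 to 677 with 1 library left out. The 385 probe sets called became 253 under median centring, 223 with no filter, 93 with no intensity trend, 942 with the replicate block, 1253 when blocked on them and 19 without wild type replicates 1 and 2 together, and ran from 46 to 684 with 1 library left out. Same-numbered mice correlated by 0.15, 0.068 and 0.301 in their deviations from the group means, and 4 of 6 arrays correlated best with their own number. In both groups replicates 1 and 2 carried Y-linked transcripts and replicate 3 did not. These values do not settle whether the numbers pair mice. The reported fit has no term for replicate or Y-linked transcripts, so differences between them stay in its spread. The replicate block changed the call of none of the 5 genes; of the other listed genes it called Camk2a, Prkd3 and Myog (adjusted p = 0.0116, 0.0363 and 0.00806). Values near the array medians of 20 to 26.1, as for Dach2 and most Runx1 probe sets, limit what these arrays can show.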
